A study of Homo sapiens with 21 samples.

Results

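OCI-AML3 is a human acute myeloid leukaemia line that grows in suspension and carries mutations in NPM1 and DNMT3A. Of the 21 libraries of the series, 9 are described here, with 3 replicates in each of 3 groups. Cells of the first group were untreated and harvested at 0 h. Cells of the other groups had been cultured with DMSO, the solvent of the drug tunicamycin, for 4 h and for 24 h. No cells of these 9 libraries received tunicamycin, and no gene was deleted or silenced in them. The members were chosen by these labels alone. In the study the DMSO cultures are the controls of the treated cultures of the same age, and the comparison of DMSO at 24 h with DMSO at 4 h asks how much the control itself changed with time in culture. Between 4 h and 24 h the hours since seeding, the density of the cells and the age of the medium change together and cannot be told apart. Between 0 h and 4 h the addition of DMSO changes as well. The labels do not say whether replicates were separate cultures, so that p-values measure only the spread between libraries. That spread was estimated over all 21 libraries of the series.

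Polyadenylated RNA was sequenced, and the deposited values are expected counts per gene, which estimate how many reads came from each gene. The 9 libraries held between 14595516 and 18109254 counts. Levels are given as CPM, counts scaled to a common library total and between libraries by TMM, and 3 counts corresponded to 0.171 to 0.231 CPM. Differences are log2 fold changes with standard errors (SE) from edgeR's quasi-likelihood test, with p-values adjusted over the 14012 genes tested by the method of Benjamini and Hochberg. A gene is called when its adjusted p is at most 0.05 and its log2 fold change is above 1 or below -1. Libraries of DMSO at 4 h correlated with those at 24 h at r = 0.958 to 0.967 across genes, below the r = 0.980 to 0.987 among the libraries of each of these groups, while untreated and 4 h libraries correlated at 0.978 to 0.984. All 12 defining markers of the myeloid line were tested, with CD33 at 66.8 to 80.1 CPM and CEBPA at 539.8 to 923.8 CPM in the 9 libraries. MPO, CD14 and ITGAM were the lowest of them, with CD14 under 1 CPM at 0 h and 4 h and MPO at 1.004 to 1.66 CPM. Markers of other cells were mostly near 0. Of 11 lymphoid markers 9 stayed under 1 CPM in all 9 libraries and 5 were at 0, and of 12 erythroid and megakaryocyte markers 11 stayed under 1 CPM and 5 were at 0. Of 17 stromal and epithelial markers 14 stayed under 1 CPM and 9 were at 0. The exceptions with higher levels were NCAM1, the adhesion molecule CD56, at 169.2 to 280.3 CPM, and the collagen gene COL1A2 at 17.9 to 28.4 CPM.

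A leukaemia cell in culture draws glucose, amino acids, iron and lipids from its medium and responds to oxygen through the hypoxia-inducible factors (HIFs). Prolyl hydroxylases of the EGLN family use oxygen to mark the HIF alpha subunits for degradation, and HIFs that escape this bind DNA at sites with the core ACGTG. The sterol sensor SCAP holds the factor SREBP2 in the ER while sterols are plentiful and releases it when they are scarce. Heat shock factor 1 drives the cytosolic chaperones, and the unfolded protein response drives those of the ER. MYC drives ribosome biogenesis, and immature myeloid cells acquire surface receptors such as CD14 and CD86 as they mature towards monocytes.

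The culture with DMSO for 24 h differed from that for 4 h in many genes, and more of those called were higher than lower. Of 14012 genes 581 were called, which is 4.15%. Of these 488 (3.48%) were higher and 93 (0.664%) were lower at 24 h. Of the genes called higher 118 were under 1 CPM on average at 4 h, and such genes pass the filter on low values mainly through other groups in which they are higher. At adjusted p alone 5970 genes differed (42.6%), of which 2944 (21%) were higher and 3026 (21.6%) lower, so that the numbers in both directions were close. These shares of 21% and 21.6% are the background of every count at adjusted p in the lists below. The shares of 3.48% and 0.664% are the background of every count of genes called higher and lower in them. Library sizes without TMM gave 381 genes called higher and 165 lower, with a median of all genes of -0.14, and without DMSO 4 h replicate 1 the number called lower was 143. Without the filter on low counts 917 genes were called, 235 of them lower. Among the genes called, 69 rose by more than 2 and 28 by more than 3 on the log2 scale, whereas 4 fell by more than 2. The median log2 fold change of all genes was -0.02. Between DMSO at 4 h and untreated cells few or no genes were called. With edgeR 0 genes were called (0%) and 0 passed the adjusted p, whose lowest value was 0.296, and 1159 genes (8.27%) had an unadjusted p under 0.05. The limma voom and DESeq2 fits also called 0, with 1186 and 1130 genes at an unadjusted p under 0.05. Without the filter on low counts 40 genes were called (21 higher, 19 lower), and without DMSO 4 h replicate 1 it was 1. Against untreated cells, DMSO at 24 h gave 586 calls (4.18%), 501 higher (3.58%) and 85 lower (0.607%), and 6175 genes (44.1%) passed the adjusted p. This comparison shares its 24 h libraries with the first, so that its values stand beside those of the first and are no separate evidence.

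**Figure D1:**
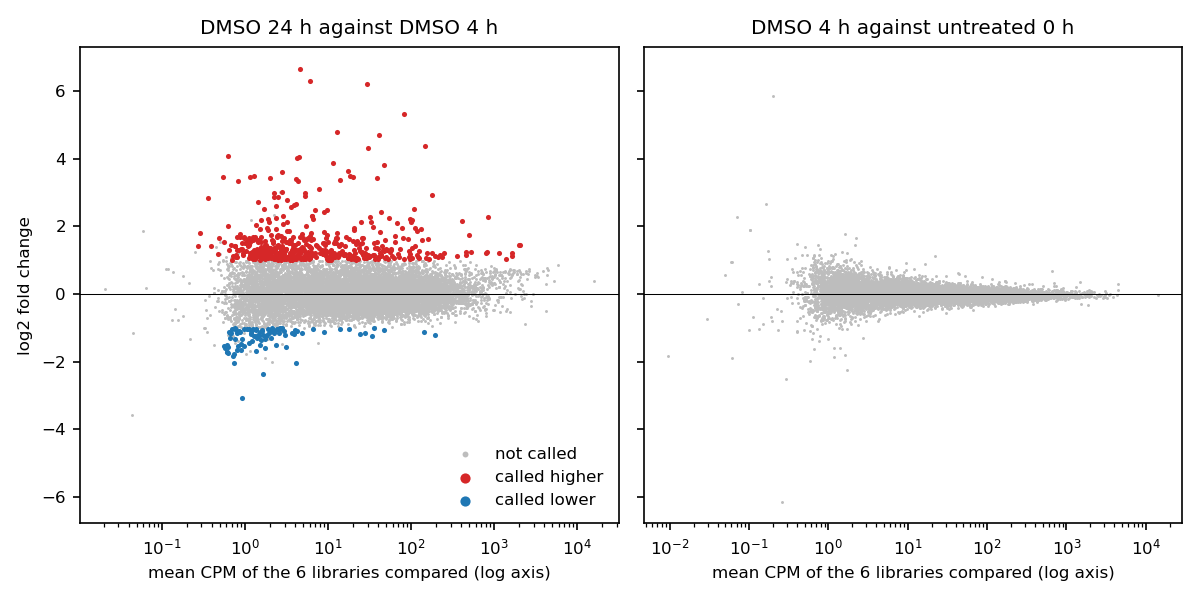
Log2 fold change (vertical axis) against the mean CPM of the 6 libraries compared (horizontal log axis), for DMSO at 24 h against 4 h (left) and DMSO at 4 h against untreated cells (right), each point 1 of 14012 genes. On the left 488 genes are called higher (red) and 93 lower (blue), and on the right no gene is called.

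The genes with the largest rises encode secreted hormones, an oxygen sensor, surface receptors of myeloid cells and an inhibitor of growth signalling. ADM (chr11:10305073-10307397, plus strand, GRCh38), which encodes the vasodilating peptide adrenomedullin, was at 0.199, 0.256 and 0 CPM at 4 h and at 13.5, 9.93 and 12.9 CPM at 24 h. Its log2 fold change was 6.30 (SE 0.42, edgeR adjusted p = 1.29e-10), on 0 to 4 counts a library at 4 h. STC1, encoding the secreted glycoprotein stanniocalcin 1, went from 1.196, 0.576 and 0.572 CPM to 69.7, 50.0 and 54.8 CPM (log2 fold change 6.23, SE 0.25). Every 24 h library lay above all 4 h and 0 h libraries for both genes. EGLN3, 1 of the prolyl hydroxylases that act on HIF, was at 0.0664, 0 and 0.172 CPM at 4 h, all at 3 counts or fewer, and at 9.54, 7.06 and 11.1 CPM at 24 h. Set against 3 counts per library, it was at least 49.2-fold higher.

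FCGR2B (chr1:161663143-161678654), the inhibitory receptor for the Fc part of IgG, was at 4.85, 3.65 and 3.38 CPM at 4 h and at 168.4, 129.4 and 179.7 CPM at 24 h (log2 fold change 5.33, SE 0.16, adjusted p = 9.3e-16). FCGR2C, a near-identical neighbour on chromosome 1, rose from 0.797, 0.832 and 1.03 CPM to 25.2, 25.2 and 23.7 CPM, and since RSEM divides shared reads between such copies the split between both is uncertain. CD300A, another inhibitory receptor of myeloid cells, rose from 3.65, 3.65 and 2.003 CPM to 84.9, 73.3 and 82.1 CPM (log2 fold change 4.70, SE 0.19). For these 3 receptors the lowest 24 h library lay above the highest 4 h library. CD86, which stimulates T cells, rose from 2.59, 2.62 and 3.605 CPM to 33.9, 30.1 and 36.8 CPM (log2 fold change 3.5, SE 0.19). LSP1, an actin-binding protein of leukocytes, rose 13.99-fold, and SULF2, a secreted sulfatase that trims heparan sulfate, rose 12.4-fold. The other large rises were ADSS1 (10.9-fold), a synthetase of the purine nucleotide cycle, TBC1D30 (10.5-fold), a Rab GTPase-activating protein, and the histone gene H2AC6 (8.63-fold).

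DDIT4 (chr10:72273919-72276036), which encodes the mTORC1 inhibitor REDD1, was at 19.1, 10.8 and 11.4 CPM at 4 h and at 303.9, 256.9 and 289.6 CPM at 24 h (log2 fold change 4.37, SE 0.13, adjusted p = 1.53e-16). MIR210HG, the host transcript of the miRNA miR-210, rose from 2.13, 0.832 and 1.43 CPM to 17.6, 21.7 and 25.3 CPM. STC2, the second stanniocalcin, rose from 0.465, 1.79 and 1.26 CPM to 10.4, 7.59 and 10.3 CPM. Between 0 h and 4 h the log2 fold changes of the genes with the largest rises named above ran from -0.39 (CD300A) to 0.95 (EGLN3, on at most 3 counts a library), and no adjusted p was below 0.649.

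**Figure D2:**
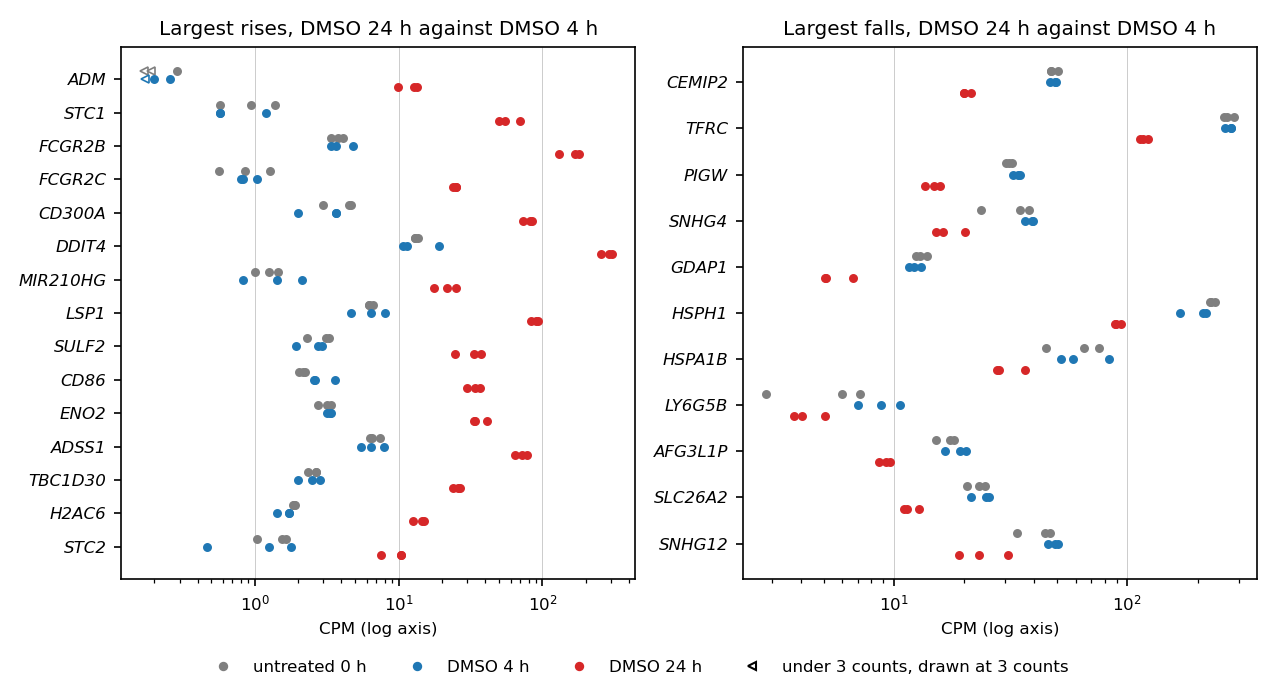
CPM (log axis) in every library of the genes with the largest rises (left) and falls (right) between DMSO at 4 h and 24 h by the naming rule, each point 1 library. Among the rises the 24 h libraries (red) lie above all 0 h and 4 h libraries of the same gene, while the falls are all between 2.001-fold and 2.37-fold.

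The list of HIF targets outside glycolysis had the highest median of the lists with more than 1 gene tested. It also holds HIF1A and EPAS1, genes of the HIF alpha subunits and the 2 members that were lower. Of 21 genes 19 were tested. At adjusted p 17 were higher and 2 lower (21% and 21.6% of all genes), and 11 were called higher (3.48% of all genes). The median log2 fold change was 1.07 against -0.02 for all genes. NDRG1, a gene that responds to hypoxia and differentiation, rose from 293.5, 305.0 and 272.3 CPM to 1520, 1312 and 1368 CPM (log2 fold change 2.27, SE 0.07). P4HA1, a collagen prolyl hydroxylase, rose 4.64-fold. BNIP3, a receptor for the autophagy of mitochondria, rose from 43.5, 35.4 and 32.3 CPM to 168.0, 151.1 and 186.4 CPM. VEGFA, the vascular growth factor, rose from 31.6, 35.8 and 33.0 CPM to 81.0, 69.0 and 86.4 CPM, and EGLN1, the main oxygen-sensing hydroxylase, rose 1.77-fold. The RNAs of the alpha subunits themselves moved the other way by small amounts. HIF1A was at 48.9, 56.3 and 59.6 CPM at 4 h and at 47.7, 45.2 and 44.2 CPM at 24 h (log2 fold change -0.27, SE 0.09, adjusted p = 0.022), and EPAS1, which encodes HIF2 alpha, fell by 0.35 on the log2 scale (adjusted p = 0.0236). Both lost significance in the fit of the 9 libraries alone and without replicate 3 of DMSO 4 h or of DMSO 24 h. HIF1A also lost it with the GC trend removed, in the fit of the 6 libraries and without replicate 2 of either DMSO group. Under the alternatives the log2 fold change of HIF1A ran from -0.39 to -0.03, with an adjusted p up to 0.724. HIFs are known to be set mainly at the protein level, which was not measured in these libraries. CA9, the carbonic anhydrase widely used as a marker of hypoxia, was not tested, with at most 0.215 CPM in the 24 h libraries.

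The promoter windows of these genes are shown because the HIF core stands in many of them. RefSeq windows of 300 bases (250 before to 50 after the gene start, GRCh38.p14) were found for 16 of the 19 genes tested. The letters ACGTG, on either strand, were in 9 of these 16 (56.2%), in 8 of 21 windows of the glycolysis list (38.1%), and in 2788 of 10302 windows of all genes tested (27.1%). Of the 329 windows of genes called higher 86 held them (26.1%), close to the share of all genes tested. A match describes the letters and shows no binding, and windows without a match, such as those of EGLN3 and ADM, say nothing about sites elsewhere. The stretches below lie before the RefSeq gene starts, with the core in capitals, CACGT being the core on the other strand.
BNIP3 (chr10:131982012-131982096, minus strand): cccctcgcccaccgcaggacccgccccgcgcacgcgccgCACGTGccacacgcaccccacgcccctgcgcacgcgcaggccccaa
ANKRD37 (chr4:185396658-185396742, plus strand): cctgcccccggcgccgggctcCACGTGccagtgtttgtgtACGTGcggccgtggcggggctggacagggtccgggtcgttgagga
DDIT4 (chr10:72273759-72273843, plus strand): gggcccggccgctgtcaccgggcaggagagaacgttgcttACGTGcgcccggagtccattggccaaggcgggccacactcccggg
In BNIP3 the core read on both strands forms the palindrome CACGTG, 134 bases before the start, and in DDIT4 the core stands 125 bases before it. ANKRD37, an ankyrin repeat protein, has 2 sites, and its level rose from 5.71, 3.46 and 3.55 CPM to 8.96, 8.93 and 11.7 CPM (log2 fold change 1.22, SE 0.19), compared with 4.37 for DDIT4.

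Glycolysis rose nearly as a whole. All 23 genes were tested, 21 were higher and 1 lower at adjusted p (21% and 21.6% of all genes), 7 were called higher (3.48% of all genes), and the median log2 fold change was 0.73. The list's summed level was 14160 to 16890 CPM at 4 h and 26780 to 27200 CPM at 24 h. The largest changes were in isoforms and regulators. ENO2, the neuronal form of enolase, rose from 3.39, 3.20 and 3.32 CPM to 41.2, 33.8 and 33.7 CPM (log2 fold change 3.45, SE 0.15). ALDOC, an aldolase, rose from 46.0, 43.3 and 35.8 CPM to 335.8, 302.7 and 316.3 CPM (log2 fold change 2.93, SE 0.09, adjusted p = 1.53e-16). PFKFB4, which sets the level of an activator of phosphofructokinase, rose 5.32-fold, and the glucose transporter SLC2A3 rose 3.76-fold. The abundant enzymes rose less. GAPDH, often used to normalise other genes, was at 4759, 3989 and 4021 CPM at 4 h and at 7651, 7570 and 7721 CPM at 24 h (log2 fold change 0.85, SE 0.08). ENO1 rose 1.62-fold and LDHA, lactate dehydrogenase A, 1.59-fold. PFKM, the muscle form of phosphofructokinase, had a log2 fold change of 0.00 (SE 0.07, adjusted p = 0.981). The transporters of lactate moved apart. SLC16A3, which exports lactate, rose 1.55-fold, while SLC16A1, which carries it both ways, fell from 127.2, 109.5 and 130.4 CPM to 88.7, 85.1 and 87.3 CPM (log2 fold change -0.49, SE 0.07). Of 6 genes tested that respond to glucose or to energy supply 2 were higher and 1 lower. TXNIP, which restrains glucose uptake and is induced by glucose through the factor MondoA, rose from 244.1, 223.9 and 223.8 CPM to 821.4, 718.7 and 770.5 CPM (log2 fold change 1.74, SE 0.06). Its relative ARRDC3 moved the other way (log2 fold change -0.57, SE 0.21, adjusted p = 0.0326), and ARRDC3 passed the test under neither voom nor the fit of the 6 libraries alone.

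Sterol synthesis rose with a similar uniformity. Of 25 genes tested 23 were higher and 0 lower at adjusted p (21% and 21.6% of all genes), 10 were called higher (3.48% of all genes), and the median log2 fold change was 0.85. INSIG1, an ER protein that retains SCAP and is itself an SREBP target, was at 169.1, 142.2 and 148.1 CPM at 4 h and at 753.5, 575.1 and 708.8 CPM at 24 h (log2 fold change 2.15, SE 0.09, adjusted p = 1.07e-14). MSMO1 and DHCR7, enzymes of the late steps of cholesterol synthesis, rose 3.30-fold and 3.15-fold. SREBF2, which encodes SREBP2, rose 1.80-fold. The fatty acid list had 7 of 10 genes higher and 0 lower at adjusted p, with 3 called higher (3.48% of all genes). ACSS2, which makes acetyl-CoA from acetate, rose 2.69-fold, and the desaturases SCD and FADS2 rose 2.36-fold and 2.37-fold. FASN, the fatty acid synthase, was at 610.5, 937.9 and 815.2 CPM at 4 h and at 1379, 1489 and 1089 CPM at 24 h (log2 fold change 0.74, SE 0.13). The receptors for oxysterols, LXR alpha and beta, drive the export of sterols, and their genes NR1H3 and NR1H2 were listed with their targets. Of these 6 genes tested, 4 of them targets, all 6 were higher at adjusted p. MYLIP, a ubiquitin ligase, rose from 54.0, 55.2 and 56.9 CPM to 139.5, 114.2 and 144.5 CPM (log2 fold change 1.26, SE 0.09). The pump ABCA1 rose 1.59-fold, and ABCG1, under 1 CPM in every library, had a log2 fold change of 1.43 (SE 0.43, adjusted p = 0.0144). ABCG1 lost significance without the filter on low counts and without DMSO 24 h replicate 2 (adjusted p up to 0.0968), which left 5 genes higher.

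**Figure D3:**
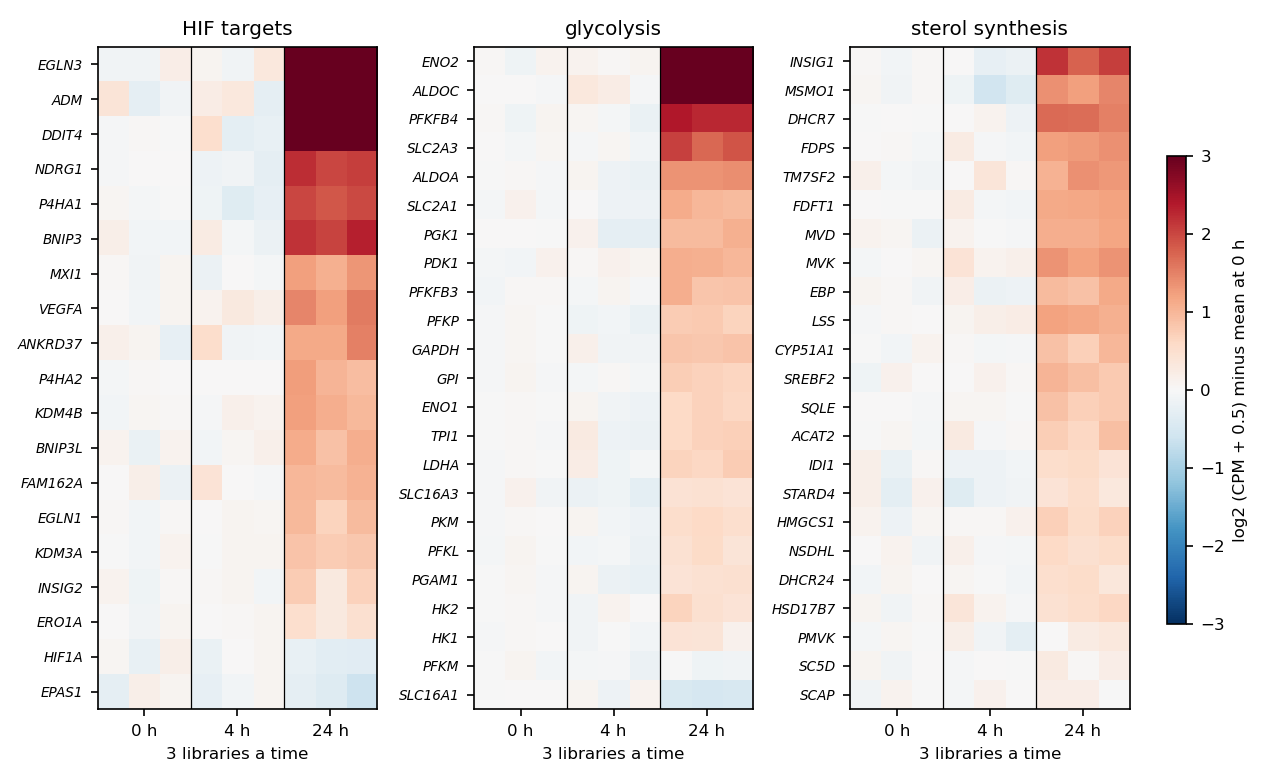
Change of tested members of 3 lists in every library, as log2 of (CPM + 0.5) minus the mean of the 3 untreated libraries (colour, saturated at 3 in both directions), with 3 columns for each time. The 0 h and 4 h columns are near white for most genes, and the 24 h columns are red for most. At adjusted p 17 of 19 genes of the HIF list, 21 of 23 glycolysis genes and 23 of 25 sterol genes were higher.

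Several lists of signalling and of myeloid maturation were higher. Of 27 immediate early genes tested, which respond within minutes to growth factors, 19 were higher and 0 lower at adjusted p. Of them 5 were called higher (3.48% of all genes). EGR1 rose from 7.18, 11.5 and 7.21 CPM to 36.2, 30.1 and 30.0 CPM (log2 fold change 1.90, SE 0.15), and the phosphatase DUSP4 rose 2.71-fold. ZFP36, which promotes the decay of cytokine mRNAs, rose from 41.5, 42.5 and 41.0 CPM to 111.2, 94.5 and 106.6 CPM. Of 21 genes of the NF-kB list 13 were higher and 4 lower at adjusted p, beside 21% and 21.6% of all genes. CXCL8, the chemokine interleukin 8, rose from 58.8, 59.1 and 63.1 CPM to 161.2, 159.9 and 160.9 CPM (log2 fold change 1.41, SE 0.09), and ICAM1, the adhesion molecule, rose 3.58-fold. CXCL1 fell from 19.9, 18.3 and 20.6 CPM to 11.98, 11.9 and 12.8 CPM (log2 fold change -0.69, SE 0.14), so that a pair of chemokines of the same receptor moved in opposite directions. NFKBIZ, an atypical IkB protein, fell 1.53-fold and the subunit gene NFKB1 1.22-fold. With the GC trend removed NFKB1 lost significance (log2 fold change -0.05, adjusted p = 0.701). Of 12 genes tested of the list of ID, BMP and TGF-beta genes 6 were higher, 2 lower and 4 did not pass. Their log2 fold changes ran from -0.76 to 4.03. TGFBI, a matrix protein induced by TGF-beta, rose 3.56-fold and ID3 2.31-fold. Of 9 glucocorticoid targets tested 5 were higher and 1 lower. TSC22D3, the glucocorticoid-induced leucine zipper, rose from 22.8, 16.8 and 17.3 CPM to 90.5, 85.8 and 93.2 CPM (log2 fold change 2.25, SE 0.08), while FKBP5, the member that was lower, fell from 32.2, 32.8 and 35.0 CPM to 23.6, 22.4 and 21.3 CPM.

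Of 21 monocyte and macrophage genes tested 15 were higher and 0 lower at adjusted p (21% and 21.6% of all genes), with 6 called higher (3.48% of all genes) and a median of 0.55. CD14, a co-receptor for lipopolysaccharide, was at 0.465, 0.576 and 0.458 CPM at 4 h and at 4.66, 3.13 and 4.16 CPM at 24 h (log2 fold change 2.98, SE 0.32). ITGAX, the integrin CD11c, rose from 0.864, 0.640 and 0.916 CPM to 4.16, 4.06 and 3.39 CPM. These levels remained low at 24 h beside CSF3R, the receptor for G-CSF, which rose from 76.4, 76.7 and 74.6 CPM to 123.5, 127.3 and 137.8 CPM. Of 16 adhesion and chemotaxis genes 12 were higher and 1 lower. ITGB2, the integrin beta 2 chain shared by CD11 integrins, rose from 673.3, 713.9 and 668.1 CPM to 1643, 1570 and 1534 CPM (log2 fold change 1.21, SE 0.07), and ITGA4 fell 1.28-fold. The fall of ITGA4 lost significance with the GC trend removed and without DMSO 4 h replicate 2 or 3 (adjusted p up to 0.189). Of 13 genes tested of the list of granule and progenitor genes 2 were higher and 5 lower, beside 21% and 21.6% of all genes. The number lower was 3 without DMSO 24 h replicate 1, DMSO 4 h replicate 1 or DMSO 4 h replicate 2. MYB, a factor of progenitors, fell from 224.5, 228.4 and 233.0 CPM to 151.5, 149.5 and 151.3 CPM (log2 fold change -0.60, SE 0.07), LYZ, lysozyme, fell 1.38-fold, and CEBPA, a factor of granulocyte fate, rose 1.505-fold. Among 16 HOX and cofactor genes 2 were higher, 2 lower and 12 did not pass, beside 21% and 21.6% of all genes. Under the alternatives, single libraries left out included, 0 to 3 were higher and 0 to 6 lower. HOXA9 and MEIS1, expressed highly in NPM1-mutant leukaemia, were at 51.7 to 69.7 CPM and 26.8 to 32.6 CPM in the 4 h and 24 h libraries. Fewer or more cells in a state and less or more RNA per cell cannot be told apart in such bulk libraries. ITGA2B, the platelet integrin, was the only tested member of the erythroid and megakaryocyte list, and it was called higher (log2 fold change 1.43, SE 0.27), at 0.598 to 1.202 CPM at 4 h and 2.16 to 2.80 CPM at 24 h.

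**Figure D4:**
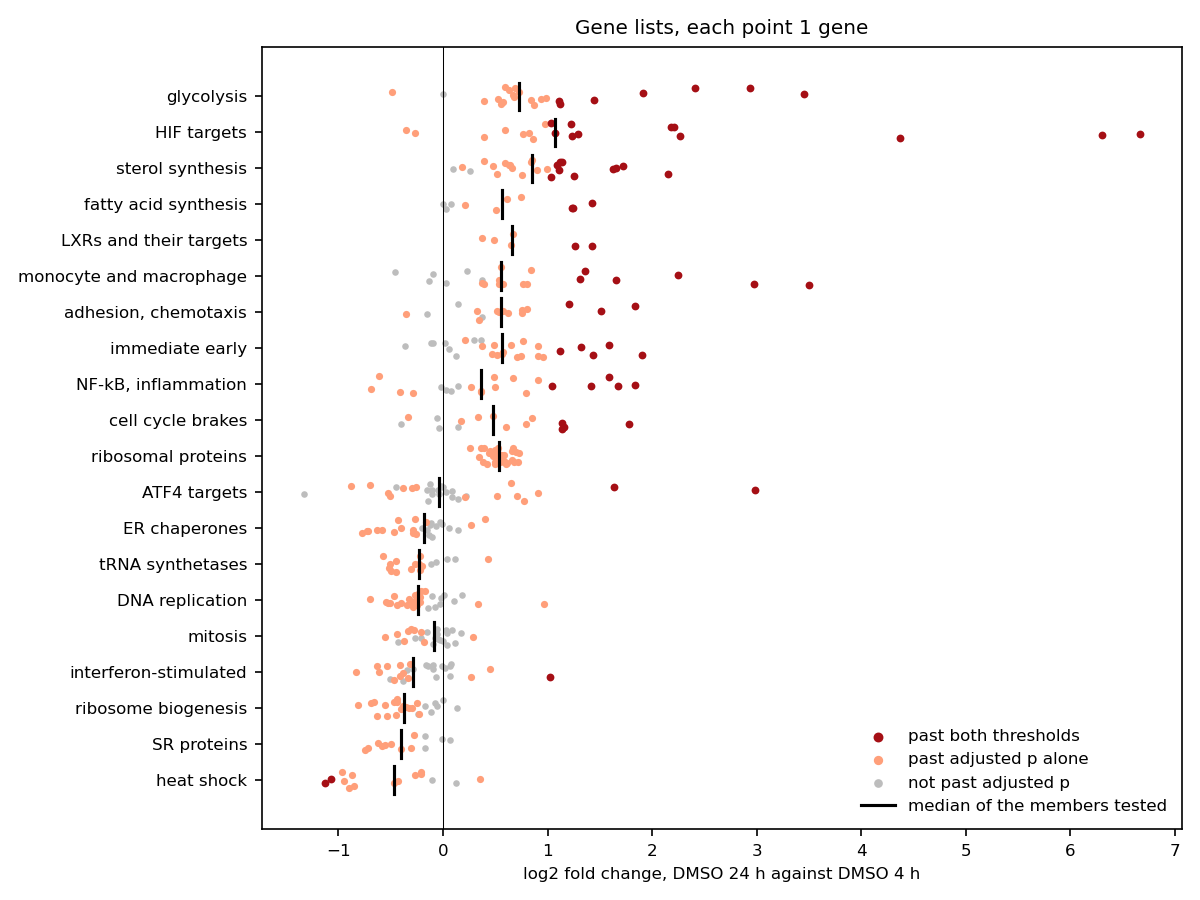
Log2 fold change of DMSO at 24 h against 4 h for every tested gene of 20 lists (each point 1 gene, black bar the median of the list). The median is 1.07 for the HIF list and -0.47 for heat shock genes, and the dark red points past both thresholds are nearly all on the right.

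Among genes of proliferation and of protein synthesis, the changes that passed the test were mostly smaller. Among 30 replication genes 20 were lower and 2 higher at adjusted p and 0 were called, with a median log2 fold change of -0.24. CCNE2, a cyclin of the entry into S phase, fell from 24.3, 27.9 and 33.2 CPM to 20.2, 19.1 and 13.2 CPM (log2 fold change -0.70, SE 0.15), and MCM10, which helps to activate the replicative helicase, fell 1.46-fold. CDT1, which licenses origins, went the other way, from 96.0, 97.0 and 93.2 CPM to 187.3, 196.2 and 175.3 CPM (log2 fold change 0.97, SE 0.09). Of 26 mitosis genes 8 were lower, 1 was higher and 17 did not pass, beside 21.6% of all genes lower, and the kinesin KIF11 had the largest fall (1.47-fold). The number lower ran from 5 to 15 under the alternatives, with 15 without TMM. Of 15 brakes on the cell cycle 10 were higher and 1 lower, with 4 called higher (3.48% of all genes). CDKN1A, the inhibitor p21, rose from 80.1, 67.4 and 68.8 CPM to 163.2, 163.1 and 157.1 CPM (log2 fold change 1.16, SE 0.10). BTG1 and CCNG2, both linked to quiescence, rose 2.21-fold and 2.20-fold. CDKN1A also belongs to the list of p53 targets. Of its 20 genes 3 were higher and 8 lower, beside 21% and 21.6% of all genes, and MDM2 fell from 120.9, 150.7 and 151.1 CPM to 107.9, 104.3 and 85.6 CPM (log2 fold change -0.50, SE 0.10).

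Ribosome biogenesis and ribosomal protein genes moved in opposite directions. Of 24 genes of MYC and ribosome biogenesis 17 were lower and 0 higher, with a median log2 fold change of -0.37. UTP20, a factor of the small subunit processome, fell from 58.1, 74.1 and 67.8 CPM to 39.3, 41.3 and 32.8 CPM (log2 fold change -0.82, SE 0.10), and LYAR, RRS1 and NOP2 fell 1.62-fold, 1.58-fold and 1.54-fold. MYC itself was at 265.6, 281.2 and 272.7 CPM at 4 h and at 282.0, 262.3 and 273.1 CPM at 24 h. Its log2 fold change was -0.00 with a 95% interval of -0.12 to 0.12. All 30 ribosomal protein genes of the list were higher at adjusted p and 0 were called, with a median of 0.54, and RPL37 had the largest rise (1.66-fold). Over every ribosomal protein gene found by name, a set chosen after its values were seen, 75 of 82 tested were higher and 1 lower. Their share of all counts was 8.34 to 10.5% at 4 h and 11.4 to 13.2% at 24 h, groups that did not overlap. No test of this share is given, as the set was chosen after seeing, and its part in the other results was not tested. The 13 protein genes of the mitochondrial genome were lower in 7 cases with a median of -0.49. Against untreated cells 2 were lower, with a median of -0.22, and their summed level at 24 h (11290 to 15570 CPM) overlapped that at 0 h (10670 to 17500 CPM) and at 4 h (14270 to 19330 CPM). The count of 7 was 11 without DMSO 4 h replicate 1 and 3 without replicate 2 of DMSO 4 h or of DMSO 24 h. MT-ND1 was at 535.5, 931.2 and 846.0 CPM at 4 h and at 424.0, 423.9 and 524.5 CPM at 24 h (log2 fold change -0.75, SE 0.18). Nuclear genes of the respiratory chain had 3 of 22 higher and 0 lower, beside 21% and 21.6% of all genes, and 9 higher without DMSO 4 h replicate 1.

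Heat shock genes were mostly lower, with a median of -0.47. Of 15 tested 12 were lower and 1 higher at adjusted p (21.6% and 21% of all genes), and 2 were called lower (0.664% of all genes). HSPH1, a nucleotide exchange factor of HSP70, fell from 168.2, 210.3 and 216.8 CPM to 94.0, 89.3 and 88.2 CPM (log2 fold change -1.13, SE 0.08, adjusted p = 1.77e-10). HSPA1B, an inducible HSP70, fell from 51.8, 83.1 and 58.4 CPM to 36.3, 27.6 and 28.3 CPM (log2 fold change -1.07, SE 0.16). Its near-identical neighbour HSPA1A fell 1.93-fold, and reads shared by both make the split uncertain. CHORDC1, a cochaperone of HSP90, fell 1.95-fold, and HSPA8, the abundant constitutive HSP70, fell from 3464, 2686 and 3067 CPM to 1624, 1719 and 1688 CPM. HSPB1, a small heat shock protein, was the exception (log2 fold change 0.35, SE 0.12, adjusted p = 0.0197), and it passed the test in neither the GC correction nor the library sizes without TMM. CHORDC1 carries the letters of a heat shock element before its start, 3 overlapping matches on either strand of GAA, TTC and GAA, or of TTC, GAA and TTC, with 2 bases of any kind between the triplets. Such letters stand in 3 of 14 windows of this list (21.4%) and in 31 of 10302 windows of all genes tested (0.301%). The windows of HSPH1, HSPA1A and HSPA1B held no match, which says nothing about sites elsewhere. The matching letters of CHORDC1 are in capitals below.
CHORDC1 (chr11:90223050-90223139, minus strand): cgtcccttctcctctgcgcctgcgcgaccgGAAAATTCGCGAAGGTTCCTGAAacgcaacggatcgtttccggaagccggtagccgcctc
At 4 h, CHORDC1 was at 43.5, 49.1 and 53.2 CPM, below the 65.0, 54.0 and 60.9 CPM of untreated cells (log2 fold change -0.30, edgeR adjusted p = 0.402), and at 24 h it was at 26.5, 26.1 and 22.1 CPM. The cold-inducible RNA-binding proteins RBM3 and CIRBP fell as well, 1.53-fold and 1.32-fold.

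Genes of the unfolded protein response, whose induction the study measures against these controls, were counted in 2 lists. Of 26 ER chaperones and related genes 13 were lower and 2 higher at adjusted p and 0 were called, with a median log2 fold change of -0.18. HSPA5, the ER chaperone BiP, was at 646.6, 673.7 and 645.1 CPM at 0 h, 733.7, 686.3 and 690.9 CPM at 4 h and 436.4, 418.6 and 423.7 CPM at 24 h (log2 fold change from 4 h to 24 h -0.72, SE 0.06, adjusted p = 1.95e-09). The 24 h level was thus below both earlier times in every library. DNAJB11 and SDF2L1, partners of BiP, fell 1.71-fold and 1.64-fold, and EDEM1, of ER-associated degradation, rose 1.32-fold. XBP1 was at 170.9 to 218.4 CPM at 4 h and 190.5 to 203.2 CPM at 24 h, with a 95% interval of its log2 fold change of -0.12 to 0.22. Counts per gene do not separate the spliced form of XBP1, which the study follows, from the unspliced form. DDIT3, which encodes CHOP, was at 10.4, 11.01 and 11.6 CPM at 4 h and at 9.25, 10.9 and 12.4 CPM at 24 h, with an interval of -0.30 to 0.25, and it shares its locus with MARS1 on the other strand. Of 31 ATF4 targets 8 were higher, 7 lower and 16 did not pass, beside 21% and 21.6% of all genes. Under the alternatives 5 to 9 were higher and 5 to 11 lower, with 11 lower without TMM. The 2 called higher, beside 3.48% of all genes, were STC2 (described above) and VLDLR. VLDLR, a lipoprotein receptor, rose 3.11-fold. PPP1R15A, the phosphatase subunit GADD34, rose from 32.8, 30.3 and 24.9 CPM to 50.5, 52.1 and 47.7 CPM (log2 fold change 0.77, SE 0.08), and TRIB3 rose 1.63-fold. ATF5 fell 1.62-fold and PSAT1, of serine synthesis, 1.44-fold. Of 17 tRNA synthetases 12 were lower and 1 higher, with EPRS1 the largest fall (1.49-fold).

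The RNAs of splicing factors of the SR family were lower at 24 h. The study follows these factors also as proteins and by their phosphorylation, which were not measured in these libraries. Of 13 tested 9 were lower and 0 higher at adjusted p and 0 were called, with a median log2 fold change of -0.41. SRSF1 was at 593.1, 566.2 and 610.6 CPM at 0 h, at 520.1, 512.1 and 539.0 CPM at 4 h and at 340.7, 344.2 and 383.2 CPM at 24 h (log2 fold change from 4 h to 24 h -0.56, SE 0.06, adjusted p = 3.57e-07). Under the alternatives the log2 fold change of SRSF1 ran from -0.68 to -0.34, with an adjusted p of at most 0.000592. SRSF10 and TRA2B fell 1.68-fold and 1.64-fold. Among 8 kinases of these proteins 2 were higher and 3 lower, near the shares of all genes (21% and 21.6%). CLK1 was at 31.5, 46.3 and 55.4 CPM at 4 h and at 60.8, 77.3 and 48.1 CPM at 24 h, groups that overlapped (log2 fold change 0.48, SE 0.17, adjusted p = 0.0265), and under the alternatives its adjusted p ran from 1.39e-05 to 0.191. SRPK1 fell 1.29-fold.

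**Figure D5:**
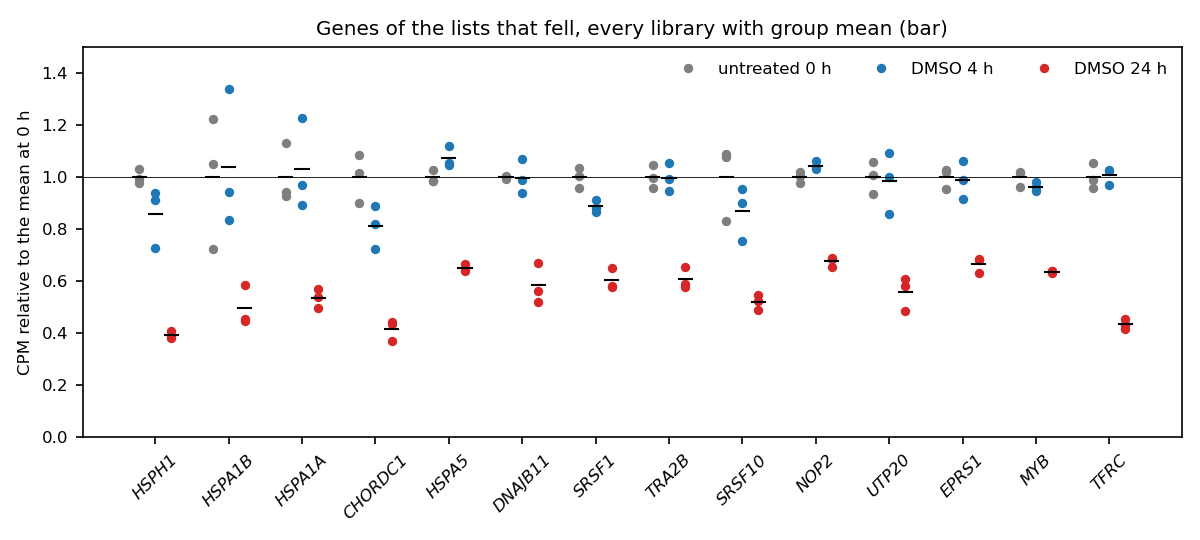
CPM relative to the mean of the untreated libraries (vertical axis from 0) for 14 genes of the lists that fell, every library a point and the bar the mean of its group. The 24 h libraries (red) lie between 0.369 and 0.69 of the untreated mean, below every 0 h and 4 h library of the same gene.

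Of the iron genes the transferrin receptor was called lower, beside 0.664% of all genes. TFRC, the transferrin receptor through which cells take up iron, fell from 263.1, 277.9 and 277.1 CPM to 117.3, 123.0 and 113.2 CPM (log2 fold change -1.21, SE 0.07, adjusted p = 4.6e-12). The ferritin genes FTH1 and FTL, which store iron, rose 1.47-fold and 1.505-fold in the same libraries. Of 11 iron genes 4 were higher and 4 lower, with 21% and 21.6% of all genes as the background of this and the next counts. With the GC trend removed 2 iron genes were lower, and the median log2 fold change of the list went from -0.06 to 0.06. Of 7 genes tested of the metallothionein list 3 were higher, 1 lower and 3 did not pass, and MT2A rose 2.57-fold. Of 17 NRF2 targets 6 were higher and 5 lower, with TKT, the transketolase, up 1.67-fold and GCLM, of glutathione synthesis, down 1.72-fold. Of 27 interferon-stimulated genes 3 were higher and 10 lower, and IFIT1 was at 28.8, 21.03 and 24.5 CPM at 0 h, 23.5, 15.2 and 18.2 CPM at 4 h and 8.82, 11.6 and 11.4 CPM at 24 h. Only 11 genes met the rule for the largest falls, and none fell by more than 1.24 on the log2 scale. CEMIP2, a hyaluronidase of the cell surface, had the largest of them, from 46.6, 49.4 and 48.9 CPM to 21.3, 19.98 and 19.9 CPM. PIGW, of the synthesis of GPI anchors, fell 2.29-fold and SLC26A2, a sulfate transporter, 2.03-fold. SNHG4 and SNHG12, non-coding hosts of small nucleolar RNAs, fell 2.24-fold and 2.001-fold. GDAP1, a protein of the mitochondrial membrane, fell 2.19-fold and the pseudogene AFG3L1P 2.04-fold. SNHG4 overlaps SIL1 and MATR3, SNHG12 overlaps TRNAU1AP, and PIGW, SLC26A2, GDAP1 and LY6G5B overlap other genes as well, so that the split of reads there is uncertain, since use of strand in counting is not stated.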

How the data were processed

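Polyadenylated RNA of OCI-AML3 and HEK293T cells had been sequenced in pairs of reads. According to the methods of the study, the authors aligned the reads with STAR to GRCh38 and estimated counts per gene with RSEM on an Ensembl annotation, and they deposited expected counts, which RSEM divides between genes that share reads. The use of strand is not stated. Here 3.54 to 4.22% of the values were not whole and were rounded. Gene names were taken from GENCODE release 44 by identifier.

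All 21 libraries in 7 groups entered 1 fit of edgeR 4.0.16 in R 4.3.3, after a filter of at least 1 CPM in at least 8 libraries and TMM scaling. The libraries not described here contribute only to the filter, the scaling and the estimate of the spread. Genes past an adjusted p of 0.05 and a log2 fold change of 1 were called, and the SE is the log2 fold change divided by the root of the F statistic. No replicate was identical to another. A floor of 3 counts covers counting error only. The alternatives were limma voom (3.58.1), DESeq2 (1.42.0), its size factors, other filters and fits, and each library left out. Corrections for GC and length and the removal of the 10 most abundant genes were added after seeing the data. The scripts were tested on simulated data.

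The genes named are the 15 largest rises and falls past both thresholds with groups apart, a mean of at least 5 CPM and a symbol, and at most 4 members a direction of each list. EGLN3 is named through its list. GAPDH, ENO1, LDHA, PFKM, SLC16A3, BNIP3, P4HA1, VEGFA, EGLN1, ANKRD37, SREBF2, HSPA8, TRIB3, CSF3R, MT-ND1, HOXA9, MEIS1, CA9, NCAM1 and the other members outside this rule were chosen after their values were seen. The comparison, its lists and its tests were chosen with earlier results of these data known. Some genes are not reported here.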

Additional observations from a re-analysis of the deposited data

How the results depend on the processing

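For 199 named genes 3779 values were recomputed, of which 3612 kept direction and side of the threshold, 152 lost significance, 1 gained it and 14 changed sign. With the threshold on adjusted p alone, DMSO 24 h against 4 h gave 5970 genes (2944 higher, 3026 lower) and DMSO 24 h against untreated cells 6175 (2994 higher, 3181 lower). With every gene of at least 1 count, the first gave 917 called with 235 lower, the second 912 with 194 lower, and DMSO 4 h against untreated cells 40 (21 higher, 19 lower), the number of genes tested being 31922. Library sizes without TMM gave 165 and 147 lower in the first and second comparison. With 1 library left out, the first gave 552 to 696 called and 79 to 143 lower, and DMSO 4 h against untreated cells 0 to 1 called and 0 to 1 higher, the highest values of each being without DMSO 4 h replicate 1. The cause was not tested.

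DDIT3 and MYC changed sign and passed the test under no alternative, and XBP1 changed sign and passed it without DMSO 4 h replicate 1 (adjusted p = 0.0468). DDIT3 was at 0.006 and 0.0063 (DESeq2 size factors, DESeq2) and ran from -0.1241 to 0.0796 with 1 library left out. MYC was at 0.025 and 0.0249 (DESeq2 size factors, DESeq2), 0.0053 in the fits of 6 and of 9 libraries, 0.0438 with the length correction and 0.0054 with the replicate block in the 9 libraries, and ran from -0.0288 to 0.0256 with 1 library left out. XBP1 was at -0.0628 without TMM and ran from -0.0122 to 0.1762 with 1 library left out.

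Same-numbered libraries of DMSO 4 h and 24 h had deviations correlated at -0.04, 0.11 and -0.05. DMSO 4 h replicate 1 had -0.16 with DMSO 24 h replicate 2 and 0.17 with replicate 3. With 3 libraries a group, such values cannot decide whether the cultures were paired. With the replicate as a block 585 genes were called in the fit of all groups and 556 in that of the 9 libraries. With the GC trend removed the median of SR proteins was -0.30 and that of heat shock genes -0.37. Depth limits the genes under 1 CPM, whose folds rest on a few counts.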

Other observations

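Replication-dependent histone genes of the clusters on chromosomes 1 and 6, are a set chosen after its values were seen. Of 66 genes found by name 18 were tested, 11 were higher and 0 lower at adjusted p (21% and 21.6% of all genes), 7 did not pass and 8 were called higher (3.48% of all genes), with a median log2 fold change of 0.95. Many of these genes are near-identical copies among which RSEM divides reads, so that single members are uncertain. H3C14 and H3C15 have the same counts in every library, and H4C15 has 23, 0 and 6 counts at 4 h. Their summed level was 40.8 to 48.2 CPM at 0 h, 42.1 to 44.3 CPM at 4 h and 83.3 to 96.6 CPM at 24 h. As the set was chosen for these values, no test is given. These mRNAs normally end in a stem-loop without a poly(A) tail, and the libraries hold polyadenylated RNA. Of 30 genes of DNA replication 20 were lower and 2 higher at adjusted p in the same libraries, and 0 were called, as described above.

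The change from 4 h to 24 h moved with base composition. Across 13971 genes the log2 fold change correlated with the GC content of the longest transcript at r = 0.294 and with its log2 length at r = -0.145, values across genes, which are not independent replicates. In 4 bins of equal size by GC content, from low to high, the median log2 fold change went from -0.22 through -0.07 and 0.07 to 0.16, and the share of genes called higher from 1.06% to 5.84%. The part of base composition in the lists was not tested beyond the correction named above.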
